A study of Homo sapiens with 12 samples.

Results

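Genes that brake or drive entry into the cell cycle were examined in human liver spheroid co-cultures exposed to total parenteral nutrition (TPN). The 10 genes, of 16705 in the expression table, were taken by name, with earlier results of these data known. They comprise the cyclin-dependent kinase (CDK) inhibitors CDKN1A, CDKN1B, CDKN1C and CDKN2B, the D cyclins CCND1 and CCND3, and the stress-responsive genes MDM2, GADD45A, GADD45B and BTG2. RNA sequencing covered 12 libraries in 4 groups of 3, namely spheroids left untreated or exposed to 1% TPN, each for 24 h or 144 h. All spheroids combined hepatocyte-like C3A cells, which were cloned from the liver tumour line HepG2, and LX-2 cells, which stand in for the stellate cells of the liver. Many spheroids were pooled for each RNA sample, so that no library stands for a single spheroid or for primary liver tissue, and the TPN was a clinical mixture of amino acids with electrolytes, glucose, lipid emulsion, trace elements and vitamins. The study describes its libraries as independent experiments, but the labels give only a replicate number, so p-values measure the spread between these samples.

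D cyclins bind CDK4 and CDK6 and start the phosphorylation of the retinoblastoma protein, which releases the E2F factors that switch on genes of DNA replication. INK4 inhibitors such as the CDKN2B product p15 act on CDK4 and CDK6, whereas the CIP/KIP inhibitors p21 (CDKN1A), p27 (CDKN1B) and p57 (CDKN1C) bind cyclin-CDK complexes more widely. The transcription factor p53, regulated mainly as a protein, induces CDKN1A, GADD45A and BTG2, and also MDM2, whose product marks p53 for degradation. In liver, p21 is known to respond both to p53 and to p53-independent stress and metabolic signals.

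Matches to the p53 response element near 4 of the 10 genes are shown here because p53 targets are compared below. The full p53 site, 2 adjoining repeats of 10 bases with no spacer, was searched on both strands within 3000 bases of the start of the canonical transcript in GRCh38, with intact cores and at most 2 mismatches elsewhere. The element reads as its own complement pattern, so a match counts for both strands. Capitals mark the core of each repeat, and the sequences run 5′ to 3′ on the strand of the gene.
CDKN1A: gaaCATGtcccaaCATGttg
GADD45A: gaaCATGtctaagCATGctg
BTG2: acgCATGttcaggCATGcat
GADD45B: agaCTTGgttgaaCTTGgtt
The CDKN1A match (chr6:36676449-36676468, plus strand) lay 2265 bases before the canonical start, across the first base of the wider gene interval listed in the deposited table (36676463). The GADD45A match (chr1:67686775-67686794, plus strand) lay in an intron 1574 bases after the start and had 1 mismatch, the fewest of the 4. The BTG2 match (chr1:203303642-203303661, plus strand) lay 1877 bases upstream, and the GADD45B match (chr19:2478021-2478040, plus strand) lay in an exon, 1894 bases after the start. Such a match was found for 4 of the 10 genes, for 10 of 33 other known p53 targets and for 2.94% of 11596 genes scanned. A match is a description of the sequence and not a measured binding site, and its absence says nothing about the factor.

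Values are FPKM, fragments scaled to transcript length and to the number of mapped fragments, as the authors deposited them, so levels can be set beside each other per transcript length. Depth was close to 1.87e+07 fragments per library (Theil-Sen 95% interval of the fit 1.83e+07 to 1.96e+07), as estimated from the steps between low FPKM values. Fold changes were fitted with limma on log2(FPKM + 0.1) over the 11713 genes with a mean of at least 0.5 FPKM, and adjusted p is the Benjamini-Hochberg value over all of them. The pseudocount of 0.1 shrinks the change of genes with low values. A gene is said to rise or fall where its adjusted p was below 0.05. Of the 10 genes, 9 passed the filter, and CDKN1C did not. CDKN2B passed only with its TPN 144 h libraries counted (mean 1.96 FPKM, against 0.233, 0.213 and 0.790 FPKM in the other groups).

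**Figure D1:**
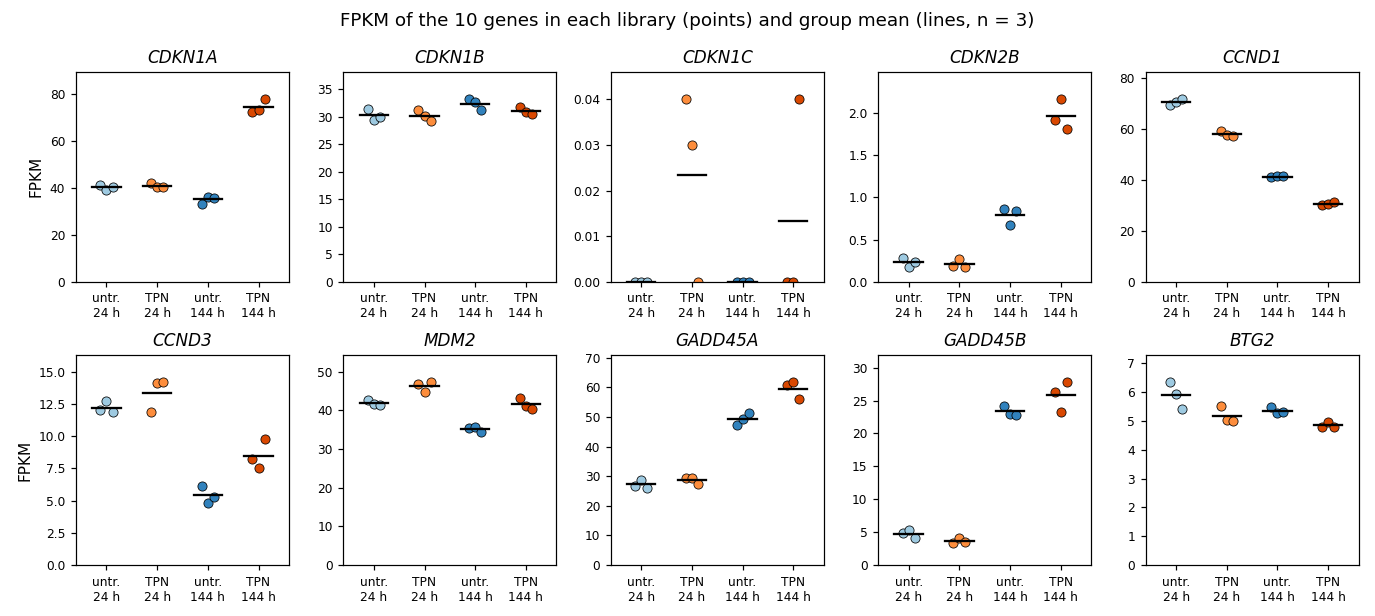
FPKM (y axis, linear from 0, a scale of its own for each gene) of the 10 genes in untreated and 1% TPN spheroids after 24 h and 144 h (x axis); points are libraries and lines are means of 3. CDKN1A lay between 33.21 and 42.14 FPKM in 9 libraries and between 72.23 and 77.81 FPKM in the TPN 144 h libraries.

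After 24 h of exposure, the changes in this set were small in size. Of the 9 genes tested, MDM2 rose while CCND1 and GADD45B fell, and none changed by more than 0.58 on the log2 scale, the threshold the study used. Across all genes tested, 5.04% rose and 5.46% fell at 24 h, and 0.914% changed with an absolute log2 fold change above 0.58. After 144 h, 5 of the 9 rose (CDKN1A, CDKN2B, CCND3, MDM2 and GADD45A) and CCND1 fell, against a background in which 24.2% of all genes rose and 28.3% fell. CDKN1A, CDKN2B and CCND3 also passed the threshold of 0.58, as did 9.48% of all genes. Because the set was chosen with earlier results of these data known, its counts and the shares over all genes are only set side by side. The median log2 fold change over all genes was -0.0045 at 24 h and -0.018 at 144 h.

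CDKN1A (gene 1026, chromosome 6, 36676463 to 36687332) encodes p21. Untreated spheroids had 41.40, 39.25 and 40.59 FPKM at 24 h, and exposed ones 42.14, 40.50 and 40.31 FPKM. At 144 h the untreated libraries gave 33.21, 36.28 and 35.84 FPKM and the exposed libraries 72.23, 73.27 and 77.81 FPKM. The groups thus overlapped at 24 h and lay far apart at 144 h. CDKN1A rose 2.12-fold after 144 h (log2 fold change 1.08, SE 0.041, adjusted p = 1.91e-10 in limma), and only 221 of the 11713 genes had a higher log2 fold change. At 24 h its log2 fold change was 0.020, with a 95% interval from -0.068 to 0.11 (adjusted p = 0.826 in limma). The effects at the 2 exposure times differed by 1.06 on the log2 scale (SE 0.058, adjusted p = 6.95e-08 in limma).

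CDKN1B (gene 1027, chromosome 12, 12717368 to 12722369) encodes p27. Its 12 libraries all lay between 29.20 and 33.20 FPKM, and the groups overlapped at both times. The mean was 32.4 ± 1.07 FPKM (SD, n = 3) in untreated and 31.1 ± 0.713 FPKM (SD, n = 3) in exposed spheroids at 144 h. The log2 fold change at 144 h was -0.058, with a 95% interval from -0.14 to 0.025, which leaves out a change of the size seen for CDKN1A. At 24 h the log2 fold change was -0.0031 (95% interval -0.086 to 0.080).

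CDKN1C (gene 1028), which encodes p57, was barely detected. It was listed at 0 FPKM in all 6 untreated libraries, at 0.04, 0.03 and 0 FPKM in the TPN 24 h libraries and at 0, 0 and 0.04 FPKM in the TPN 144 h libraries. A single fragment is worth about 0.0355 FPKM on its canonical transcript, so the values above 0 rest on about 1 fragment each. A count of 0 allows a level of up to 0.106 FPKM in a library, which covers counting error only. The deposited table places CDKN1C on a scaffold outside the chromosomes, whereas GENCODE v44 has it on chromosome 11, and how reads shared between the copies were counted is not given in the sources used here.

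CDKN2B (chromosome 9, 21995472 to 22012763), the gene of p15, was the lowest of the 9 genes tested. At 24 h it had 0.28, 0.18 and 0.24 FPKM in untreated and 0.19, 0.27 and 0.18 FPKM in exposed spheroids. It reached 0.86, 0.67 and 0.84 FPKM in untreated and 1.92, 2.16 and 1.81 FPKM in exposed spheroids at 144 h. Every 144 h library therefore lay above every 24 h library, and the exposed ones lay above the untreated ones at 144 h. CDKN2B rose at 144 h by a log2 fold change of 1.22 (SE 0.18, adjusted p = 7.06e-05 in limma), and the effect differed from that at 24 h by 1.31 (SE 0.25, adjusted p = 0.0017 in limma). These values correspond to about 53 fragments per untreated and 132 per exposed library at 144 h, and about 15.7 and 14.3 at 24 h. With a pseudocount of 1 the log2 fold change at 144 h was 0.73 and the difference between the times 0.75, and with 0.01 the log2 fold change at 144 h was 1.31. Both calls held at a pseudocount of 1. CDKN2B passed the filter only through the TPN 144 h libraries, where it was highest, so its calls are not independent of that filter. With no filter on low values the call at 144 h held (adjusted p = 9.54e-05 in limma). CDKN2B overlaps the antisense gene CDKN2B-AS1, and although the library kit kept the strand, whether counting used it is not stated.

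The other CDK inhibitors listed beside these genes split by direction at 144 h. CDKN2A, the neighbour of CDKN2B that encodes p16 and ARF, rose from 3.38 ± 0.335 to 5.06 ± 0.411 FPKM (SD, n = 3 each; log2 fold change 0.57, adjusted p = 0.000224 in limma). CDKN2C, which encodes p18, fell from 8.28 ± 0.384 to 3.28 ± 0.301 FPKM (SD, n = 3 each; log2 fold change -1.31, adjusted p = 4.34e-08 in limma). The phosphatase gene CDKN3 also fell, by 0.39 on the log2 scale (adjusted p = 0.000136 in limma). Of the 4 genes of this list, 1 rose and 2 fell, with a median of -0.092, beside 24.2% and 28.3% of all genes. At 24 h 1 rose and 2 fell, beside 5.04% and 5.46% of all genes. These were CDKN2D (0.32, adjusted p = 0.0367 in limma), CDKN2C (-0.39) and CDKN3 (-0.26). At 144 h CDKN2D did not pass (0.20, adjusted p = 0.0734 in limma).

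At 144 h of exposure CCND1 fell and CCND3 rose. CCND1 (gene 595, chromosome 11, 69641123 to 69658430) encodes cyclin D1, and its libraries had 69.47, 70.69 and 71.64 FPKM untreated and 59.04, 57.48 and 57.25 FPKM exposed at 24 h. At 144 h they had 40.97, 41.34 and 41.46 FPKM untreated and 30.06, 30.62 and 31.31 FPKM exposed. No library of one group reached the range of another. CCND1 fell by 0.29 on the log2 scale at 24 h (SE 0.028, adjusted p = 1.63e-05 in limma) and by 0.43 at 144 h (SE 0.028, adjusted p = 3.28e-08 in limma). The effect was larger at 144 h, with a difference of -0.14 (SE 0.039, adjusted p = 0.0151 in limma). CCND1 shares sequence on the opposite strand with LTO1.

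CCND3 (gene 896, chromosome 6, 41934065 to 42048894) encodes cyclin D3. Its libraries had 12, 12.75 and 11.90 FPKM untreated and 11.84, 14.11 and 14.16 FPKM exposed at 24 h. At 144 h they had 6.12, 4.78 and 5.31 FPKM untreated and 8.23, 7.5 and 9.75 FPKM exposed. The groups overlapped at 24 h and were separate at 144 h, where the exposed libraries remained below the untreated ones of 24 h. CCND3 rose at 144 h by a log2 fold change of 0.64 (SE 0.10, adjusted p = 0.000142 in limma). At 24 h it was 0.12 (adjusted p = 0.510 in limma), and the difference between the exposure times was 0.52 (SE 0.14, adjusted p = 0.0160 in limma).

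MDM2 (gene 4193, chromosome 12, 68808149 to 68850686) encodes the ubiquitin ligase of p53. At 24 h it had 42.69, 41.58 and 41.42 FPKM in untreated and 46.77, 44.77 and 47.23 FPKM in exposed libraries. The values at 144 h were 35.50, 35.75 and 34.36 FPKM untreated and 43.10, 41.19 and 40.44 FPKM exposed. Exposed libraries were above untreated ones at both times, by a small margin. MDM2 rose by 0.14 on the log2 scale at 24 h (SE 0.034, adjusted p = 0.0155 in limma) and by 0.24 at 144 h (SE 0.034, adjusted p = 5.05e-05 in limma). The difference of 0.097 between the exposure times did not pass (adjusted p = 0.145 in limma). At 24 h MDM2 no longer passed when untreated replicate 2 or 3, or TPN replicate 1 or 3, of that time was left out, with adjusted p between 0.0545 and 0.0674 in limma. MDM2 overlaps CPM on the opposite strand and a processed pseudogene on its own strand.

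GADD45A (gene 1647, chromosome 1, 67685201 to 67688334) encodes a stress sensor that binds p21 and the MAP3K4 kinase. Its libraries had 26.80, 28.75 and 26.10 FPKM untreated and 29.48, 29.23 and 27.22 FPKM exposed at 24 h, and these ranges overlapped. They had 47.19, 49.42 and 51.36 FPKM untreated and 60.85, 61.61 and 56.06 FPKM exposed at 144 h, with no overlap. GADD45A rose at 144 h by a log2 fold change of 0.27 (SE 0.050, adjusted p = 0.000446 in limma). At 24 h the log2 fold change was 0.074 (adjusted p = 0.406 in limma). The difference between the times was 0.20 (adjusted p = 0.0487 in limma), a call lost in 12 of the alternatives listed in the closing section.

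GADD45B (gene 4616, chromosome 19, 2476127 to 2478259), a relative of GADD45A known as a target of NF-κB and TGF-β signalling, went the other way at 24 h. Its libraries had 4.81, 5.33 and 4.17 FPKM untreated and 3.39, 4.10 and 3.43 FPKM exposed, with the highest exposed library just below the lowest untreated one. At 144 h they had 24.23, 22.94 and 22.83 FPKM untreated and 26.35, 23.31 and 27.74 FPKM exposed, and the ranges overlapped. GADD45B fell by 0.38 on the log2 scale at 24 h (SE 0.092, adjusted p = 0.0171 in limma), and its log2 fold change at 144 h was 0.14 (adjusted p = 0.214 in limma). The difference between the times was 0.52 (SE 0.13, adjusted p = 0.00858 in limma). At 24 h GADD45B no longer passed in a fit of just the 6 libraries compared (adjusted p = 0.0530 in limma), nor when untreated replicate 1 or 2, or TPN replicate 1 or 3, was left out, with adjusted p up to 0.0781 in limma.

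BTG2 (gene 7832, chromosome 1, 203305519 to 203312369) encodes an antiproliferative partner of the mRNA deadenylation machinery. It had 6.33, 5.93 and 5.41 FPKM in untreated and 5.51, 5.02 and 5.00 FPKM in exposed libraries at 24 h. At 144 h the values were 5.48, 5.28 and 5.30 FPKM untreated and 4.8, 4.96 and 4.77 FPKM exposed. Exposed libraries were lower at 144 h without overlap, but the change did not pass the test at either time. The log2 fold change was -0.18 at 24 h (adjusted p = 0.0952 in limma) and -0.14 at 144 h (adjusted p = 0.0795 in limma), with a 95% interval from -0.28 to -0.0034 at 144 h. Among the genes of the set with a p53 site match, only BTG2 had fitted values below 0 at both times, and neither passed. GADD45B, which also had a match, fell at 24 h.

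**Figure D2:**
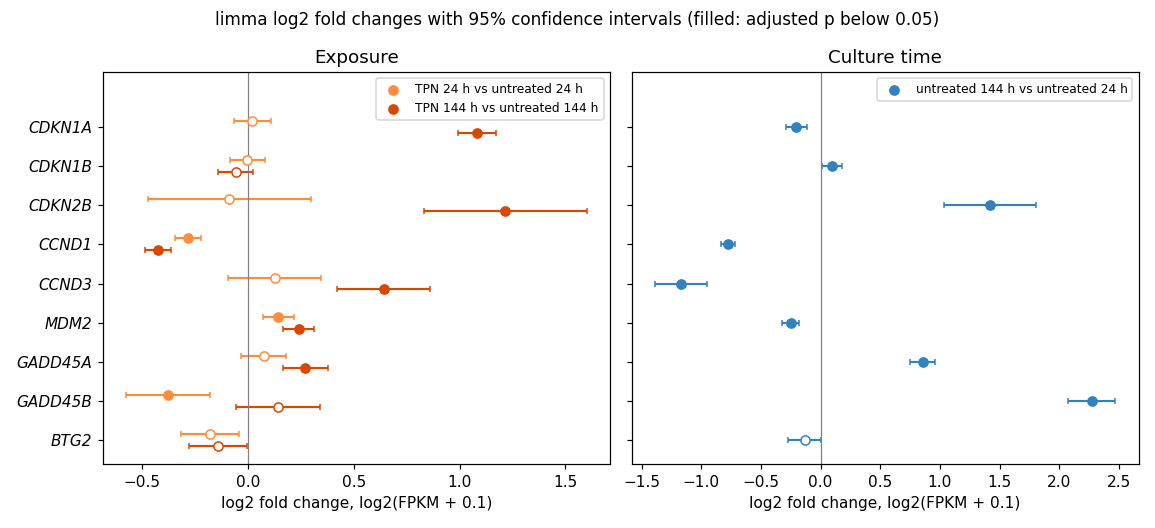
Log2 fold changes from limma on log2(FPKM + 0.1) (x axes) with 95% confidence intervals for the 9 genes tested (y axis), for TPN against untreated spheroids at each time (left) and for untreated spheroids at 144 h against 24 h (right); filled points had an adjusted p below 0.05. CDKN1A (1.08) and CDKN2B (1.22) lay furthest to the right at 144 h of exposure, while GADD45B (2.27) did so for culture time.

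The test of the difference between the exposure times, computed by subtracting the log2 fold change of 24 h from that of 144 h, was passed by 6 of the 9 genes. CDKN1A, CDKN2B, CCND3, GADD45A and GADD45B had the higher value at 144 h and CCND1 the lower, against 14.1% higher and 16.3% lower among all genes. With the threshold of 0.58 added, CDKN1A and CDKN2B passed, as did 5.87% of all genes.

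Time in culture alone moved most of these genes in untreated spheroids, as it did most of all genes tested. Between 24 h and 144 h, 4 of the 9 rose (CDKN2B, GADD45A, GADD45B and CDKN1B) and 4 fell (CDKN1A, CCND1, CCND3 and MDM2), while 20.1% of all genes rose and 52.4% fell. With an absolute log2 fold change above 0.58, 5 of the 9 passed, as did 19.0% of all genes. GADD45B rose 4.83-fold (log2 fold change 2.27, SE 0.092, adjusted p = 1.19e-10 in limma), the largest change of the set. CDKN2B rose by 1.42 and GADD45A by 0.86 on the log2 scale (adjusted p = 7.23e-06 and 3.55e-09 in limma). CCND3 fell by 1.17 and CCND1 fell by 0.77 (adjusted p = 2.09e-07 and 3.66e-11 in limma).

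For the smaller changes with culture time, the scaling of the libraries mattered. The median over all genes was -0.18 as deposited but -0.0078 after median-ratio scaling, which gave 33.1% of genes rising and 33.7% falling, and quantile normalization gave 29.2% and 37.8%. CDKN1A fell by 0.20 as deposited, close to that median, and its value was -0.025 after median-ratio scaling (adjusted p = 0.613 in limma). MDM2 fell by 0.25 as deposited and was at -0.073 after median-ratio scaling (adjusted p = 0.0644 in limma). CDKN1B rose by 0.097 (adjusted p = 0.0351 in limma), a call lost after scaling to equal FPKM totals and without untreated 24 h replicate 2 or 3 or untreated 144 h replicate 1 or 2. BTG2 did not pass (-0.13, adjusted p = 0.0776 in limma) and was at 0.042 after median-ratio scaling. Exposure at 144 h and culture time share the untreated 144 h libraries, so their values are only set side by side here. CCND3 fell by 1.17 with culture time and rose by 0.64 with exposure, whereas CDKN2B rose by 1.42 and by 1.22.

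The order of levels within the set changed with time and exposure. CCND1 was the most abundant of the 10 at 24 h, at 70.6 ± 1.09 FPKM in untreated and 57.9 ± 0.974 FPKM in exposed spheroids (SD, n = 3 each). GADD45A led in untreated spheroids at 144 h (49.3 ± 2.09 FPKM, SD, n = 3), and CDKN1A led in exposed spheroids at 144 h (74.4 ± 2.97 FPKM, SD, n = 3). In that last group CCND1 had dropped to 30.7 ± 0.626 FPKM (SD, n = 3), level with CDKN1B, whose libraries overlapped it. Other neighbours in the order with overlapping libraries were CDKN1B and GADD45A in exposed spheroids at 24 h, and both MDM2 with CDKN1A and CCND3 with BTG2 in untreated spheroids at 144 h.

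Of 17 partners of these regulators (other cyclins, CDKs, retinoblastoma and E2F genes and their regulators), 0 rose and 11 fell at 144 h in limma at adjusted p below 0.05, with a median log2 fold change of -0.33, where 24.2% of all genes rose and 28.3% fell. At 24 h 0 of the 17 rose and 5 fell with a median of -0.075, beside 5.04% and 5.46% of all genes. The third D cyclin gene, CCND2, had a log2 fold change of -0.33 at 144 h and did not pass (adjusted p = 0.0754 in limma). SKP2, the ubiquitin ligase subunit that directs p27 to degradation, fell from 26.7 ± 0.785 to 15.8 ± 1.39 FPKM (SD, n = 3 each; log2 fold change -0.76, adjusted p = 1.06e-07 in limma). Its cofactor CKS1B fell by 0.56 and the phosphatase CDC25A, which activates CDK2, fell by 0.58 on the log2 scale. The pocket protein gene RBL1 fell by 0.51. CDK4 fell by 0.29, CDK2 by 0.35 and CDK6 by 0.18, whereas RB1 had a log2 fold change of -0.018 (adjusted p = 0.786 in limma). All 22 proliferation genes listed fell at 144 h, with a median of -0.56, beside 28.3% of all genes. At 24 h 15 of them fell, beside 5.46% of all genes, and the median over the 22 was -0.14. CCNB2 (-0.74), AURKB (-0.72), CCNA2 (-0.70) and MCM7 (-0.70) had the largest changes of that list. The same 22 genes also fell from 24 h to 144 h in untreated spheroids, with a median of -0.63, where 52.4% of all genes fell and the median over all genes was -0.18.

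Of 33 other known targets of p53 tested, 10 rose and 3 fell at 144 h with a median of 0.092, and 1 rose and 2 fell at 24 h with a median of -0.077. Over all genes, the risers made up 24.2% and the fallers 28.3% at 144 h, beside 5.04% and 5.46% at 24 h. GDF15, a stress-induced cytokine, rose from 335.6 ± 13.6 to 537.1 ± 19.1 FPKM at 144 h (SD, n = 3 each; log2 fold change 0.68, adjusted p = 4.8e-08 in limma) and was the target that rose at 24 h (0.42). SERTAD1, which binds CDK4, rose by 0.62, the pro-apoptotic PMAIP1 by 0.54 and the ribonucleotide reductase subunit RRM2B by 0.46. The effect at 144 h exceeded that at 24 h in 11 of the 33 and was below it in 0 at adjusted p below 0.05 in limma, with a median difference of 0.14. Over all genes these shares were 14.1% and 16.3%, and the median difference was -0.020. Widely used targets did not all rise, since BAX (-0.029), BBC3 (0.033) and FDXR (-0.060) did not pass at 144 h, and DDB2 fell by 0.26. DDB2 had also fallen at 24 h, by 0.37. These 4 were chosen after their values were seen and do not stand for the list, in which 10 rose and 3 fell at 144 h.

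Of 15 regulators of p53 tested, 0 rose and 4 fell at 144 h at an adjusted p below 0.05 in limma. Their median log2 fold change was -0.0083, where 24.2% of all genes rose and 28.3% fell. CHEK1, the gene of a checkpoint kinase, fell by 0.57, the phosphatase gene PPM1D by 0.20 and the deacetylase gene SIRT1 by 0.15. PPM1D was also counted among the other p53 targets that fell. MDM4, a relative of MDM2, had a log2 fold change of 0.10 (adjusted p = 0.338 in limma).

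**Figure D3:**
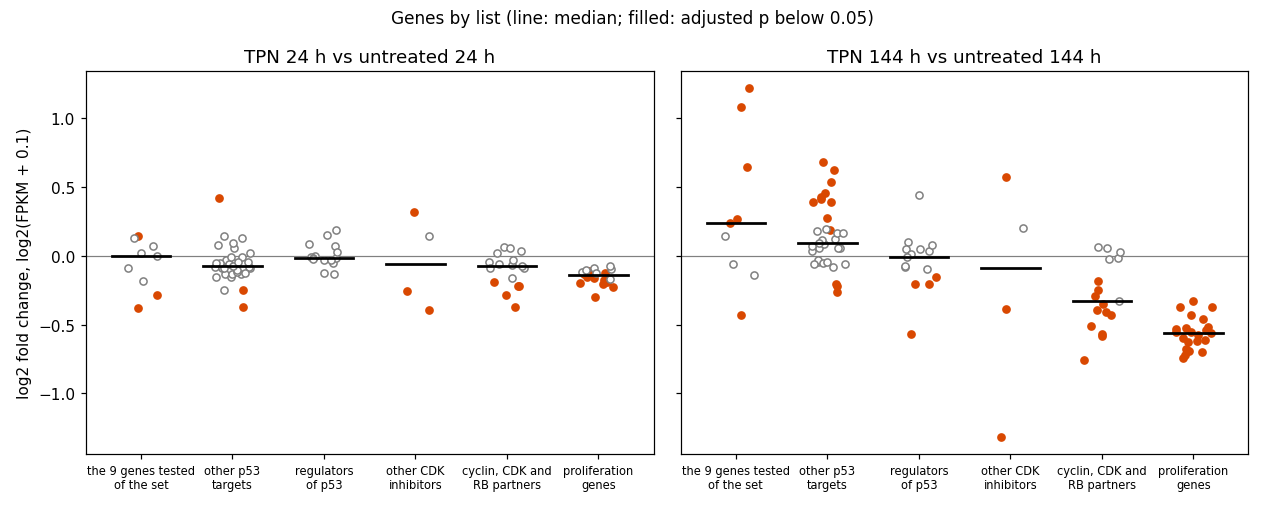
Log2 fold changes of TPN against untreated spheroids on log2(FPKM + 0.1) (y axis) at 24 h (left) and 144 h (right) for the 9 genes tested and 5 lists of related genes (x axis); points are genes, filled where the adjusted p was below 0.05, and lines are medians. At 144 h the proliferation genes lie around -0.56, the other p53 targets around 0.092, and CDKN2C stands at -1.31 among the other CDK inhibitors.

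Markers of the cell types of the spheroids moved over the same comparisons. In such bulk samples, fewer cells of a type and less RNA per cell cannot be told apart. The summed level of 10 stellate or mesenchymal markers ran from 97.0 to 102.5 FPKM in untreated and 83.8 to 87.7 FPKM in exposed libraries at 24 h. At 144 h it ran from 54.3 to 59.7 FPKM untreated and 49.0 to 51.5 FPKM exposed. Most of this sum was ACTA2, with means of 57.8 and 47.3 FPKM at 24 h and 47.9 and 45.4 FPKM at 144 h (untreated and exposed). ACTA2 did not pass at 144 h (log2 fold change -0.076, adjusted p = 0.130 in limma), so the sum says little about the other markers. Of the 8 stellate or mesenchymal markers tested, 1 fell at 24 h and 5 fell at 144 h of exposure, beside 5.46% and 28.3% of all genes. From 24 h to 144 h in untreated spheroids 7 of the 8 fell with a median of -2.35, where 52.4% of all genes fell. COL1A1 went from 15.1 FPKM in untreated spheroids at 24 h to 1.92 FPKM in untreated and 0.747 FPKM in exposed spheroids at 144 h. The stellate markers DES and PDGFRA were near 0 in every group, with means of at most 0.060 FPKM. The summed level of 10 hepatocyte markers ran from 11960 to 12330 FPKM in untreated and 11020 to 11050 FPKM in exposed libraries at 24 h, and from 13310 to 14290 and 10390 to 11130 FPKM at 144 h. Of these 10, 5 fell at 24 h and 8 at 144 h, beside 5.46% and 28.3% of all genes. ALB fell by 0.65 on the log2 scale at 144 h, and still had 3863 FPKM in exposed spheroids. Among markers of further cell types, PTPRC, PECAM1, VWF and KRT7 had means of at most 0.187 FPKM. CD68 (63.7 against 47.9 FPKM at 144 h) rose and KRT19 (68.7 against 98.5 FPKM) fell. Only C3A and LX-2 cells were seeded, so CD68 and KRT19 are not read as amounts of further cell types. The part of these shifts in the changes of the 10 genes was not tested.

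Over the 12 libraries, the genes whose log2 values followed CDKN1A most closely were ACSL5 (Pearson r = 0.991), GSDME (0.983), UGT1A1 (0.980), JOSD1 (0.979) and PC (0.978). These correlations are descriptions and carry the shared contrast between 3 libraries and the other 9. At 144 h the log2 fold changes were 0.94 for ACSL5, 0.47 for GSDME, 3.41 for UGT1A1, 0.52 for JOSD1 and 0.60 for PC, beside 1.08 for CDKN1A. UGT1A1 ranged from 0.13 to 3.69 FPKM, and it shares exons with the other UGT1A genes.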

How the data were processed

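The authors filtered DNBSEQ reads with SOAPnuke, mapped them with HISAT2 2.0.4 to GRCh38.p13 and with Bowtie2 2.2.5 to reference transcripts, and deposited FPKM values calculated with RSEM for 12 libraries. Read counts were not used here, so the DESeq2 test of the study was not run. Lines holding only broken annotation (20) were skipped, leaving 16705 genes. Genes with a mean of at least 0.5 FPKM (11713) entered a limma model (version 3.58.1, R 4.3.3) on log2(FPKM + 0.1), with 4 group means, an intensity trend and Benjamini-Hochberg adjustment. The strand column of the deposited table lists 5015 genes as plus that GENCODE v44 has as minus, CDKN2B and CCND3 among them, so strands came from GENCODE. Depth was estimated from FPKM steps of 18 short genes.

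The 10 genes and all lists were chosen with earlier results of these data known. Lists were described by counts and medians, without a set test. By rule, at most 4 genes were named from a list, those with the largest change at 144 h among genes called there with separate libraries, and the 5 most like CDKN1A by Pearson r. MDM4, CDK2, CDK4, CDK6 and RB1 were always named. Other genes named from a list (BAX, BBC3, FDXR, DDB2, CCND2, CDKN2D and further cell type markers) were chosen after their values were seen. 1 gene of the lists is not reported here and was left out of their counts. Alternatives changed the pseudocount, filter, scaling, variance trend, libraries fitted, replicate block and fold threshold.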

Additional observations from a re-analysis of the deposited data

Results flagged for a closer look

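For 6 of the 9 genes tested, the effect of TPN differed between the exposure times in limma at an adjusted p below 0.05. Subtracting the log2 fold change of 24 h from that of 144 h gave 1.06 for CDKN1A, 1.31 for CDKN2B, 0.52 for CCND3, 0.52 for GADD45B, 0.20 for GADD45A and -0.14 for CCND1. For GADD45B the fitted value went from -0.38 at 24 h to 0.14 at 144 h. With a pseudocount of 1 in place of 0.1, the difference for CDKN2B was 0.75. No explanation was weighed for these differences.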

How the results depend on the processing

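Among the 9 genes, 6 stayed called at 144 h in every fit that left out 1 library, and CDKN1A kept a log2 fold change between 1.04 and 1.11 and CDKN2B between 1.12 and 1.27. The count at 24 h ran from 1 to 3 in these fits. Requiring an absolute log2 fold change above 0.58 gave 0 genes at 24 h (3 at adjusted p alone in limma), 3 at 144 h, 2 for the difference between exposure times and 5 for culture time. Values near 0 changed sign. CDKN1B at 24 h was 0.00060 under quantile normalization and ran from -0.028 to 0.023 with 1 library left out, CDKN1A at 24 h ran from -0.00063 to 0.038, CDKN2B at 24 h from -0.21 to 0.011, and the time difference of BTG2 from -0.013 to 0.099. BTG2 with culture time was 0.042 after median-ratio scaling. BTG2 passed at 24 h without untreated 24 h replicate 3 (adjusted p = 0.0418 in limma) and at 144 h under quantile normalization (adjusted p = 0.0461 in limma). The time difference of GADD45A lost its call without a filter, without the variance trend, under equal totals or median-ratio scaling, and in 8 fits with 1 library left out, with adjusted p between 0.0559 and 0.117 in limma. The cause of these changes was not tested.

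The replicate numbers are not stated to mark a shared batch. Deviations from the group means correlated between -0.083 and 0.10 in same-numbered libraries of a time point. Across the times, same-numbered pairs ran from -0.045 to 0.15, the highest being the untreated replicates 3. Pairs with different numbers ran from -0.24 to 0.11. Within their time point, 7 of the 12 libraries correlated best with the library of their own number. A fit with a replicate block called 3, 6, 6 and 8 of the 9 genes at 24 h, at 144 h, for the time difference and for culture time, the same counts as without it, and moved the calls over all genes from 1230 to 1226 at 24 h and from 6144 to 6130 at 144 h. Depth limits CDKN1C, with about 1 fragment in 3 libraries, and CDKN2B at 24 h.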

Other observations

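Of 7 genes related to GADD45, BTG and TOB that were tested, 2 rose and 2 fell at 144 h with a median log2 fold change of 0.026, where 24.2% of all genes rose and 28.3% fell. The antiproliferative genes BTG3 and BTG1 rose by 0.68 and 0.27 on the log2 scale, and BTG3 went from 10.4 ± 0.725 to 16.9 ± 2.41 FPKM (SD, n = 3 each). TOB1, of the same family, fell by 0.40, and MAP3K4, the kinase that GADD45 proteins activate, fell by 0.26. At 24 h 0 of the 7 were called in limma, where 5.04% of all genes rose and 5.46% fell.

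The KEGG lists of the deposited table hold many genes of the lists already described, so that their counts repeat these in part, and all are read against the same 24.2% and 28.3%. Apart from the 10 genes, 59 genes of p53 signaling were tested, of which 18 rose and 22 fell at 144 h with a median of -0.046. IGFBP3, a binding protein of insulin-like growth factors, rose from 14.6 ± 0.334 to 43.3 ± 2.50 FPKM (SD, n = 3 each; log2 fold change 1.56, adjusted p = 2.64e-07 in limma), and was at 0.373 FPKM in untreated spheroids at 24 h. SFN, which encodes 14-3-3 sigma, rose by 0.74 and CDKN2A by 0.57, whereas CCNB2 fell by 0.74. Of 108 cell cycle genes, 12 rose and 64 fell with a median of -0.23, among them CDC25C (-0.82) and the separase gene ESPL1 (-0.79). Of 94 genes of FoxO signaling, which also controls several CDK inhibitors, 32 rose and 30 fell with a median of 0.032, and those with the largest changes were GABARAPL1 (1.2), HOMER2 (1.00), PCK1 (0.96) and MAPK13 (0.91).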
